A study of Mus musculus with 47 samples.

Results

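The respiratory chain of the inner mitochondrial membrane was described here through the nuclear genes of its subunits, measured in mouse embryonic stem cells and their epiblast-like derivatives. Members were all probes of the Illumina array whose gene symbol starts with Nduf (complex I), Sdh (complex II), Uqcr (complex III), Cox4 to Cox8 (complex IV) or Atp5 (complex V), without the assembly factors Ndufaf and Sdhaf and without Sdsl. The rule used symbols and no measured value, and it found 99 probes of 80 genes among 25697 probes of 16593 genes. Complex I had 45 probes of 35 genes, complex II 6 probes of 3 genes, complex III 9 probes of 8 genes, complex IV 21 probes of 18 genes and complex V 18 probes of 16 genes. The symbol rule also took Ndufs5-ps, a pseudogene, and Cox7a2l, known as an assembly factor of respiratory supercomplexes, and it counted Ndufa4 with complex I although its protein is known as a part of complex IV.

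The study compared cells that lack transcription factors of the Tcf/Lef family, the DNA-binding partners of β-catenin. The groups were the 3 mutant genotypes KO (Tcf7l1-/-), 3XKO (Tcf7-/- Tcf7l2-/- Lef1-/-) and 4XKO (Tcf7-/- Tcf7l1-/- Tcf7l2-/- Lef1-/-), and WT, with 1 line named for each genotype, so that a difference between genotypes is a difference between single lines. All cells were grown in N2B27 medium, without serum. EpiLC, epiblast-like cells, were made with 12 ng/mL Fgf2 for a time not stated, and EpiLC+CH received Fgf2 for 3 days and then 3 uM CHIR99021, an inhibitor of Gsk3 that stabilizes β-catenin, for 24 hours. ContinuedCH, made from WT only, had Fgf2 together with 3 uM CHIR99021, again for a time not stated, so comparisons with EpiLC may also differ in time in Fgf2. The starting ESC were kept in 1000 U/mL LIF, 1 uM PD0325901 (a Mek inhibitor) and 3 uM CHIR99021, so the ESC baseline of every line contained CHIR99021 and untreated EpiLC did not. These 13 groups had 3 arrays each and were normalized by the authors as 1 set of 39 arrays. A second set of 8 arrays held WT cells in LIF+PD then CH (3 arrays; LIF and PD0325901 for 24 hours, then CHIR99021 for 48 hours by the growth protocol, whereas the titles can be read as 24 hours of CHIR99021), in LIF+CH and PD+CH (1 array each) and in LIF+PD (3 arrays). The submitters called the 3 arrays of a group biological triplicates, and nothing said whether they came from separate derivations, so p-values measure the spread between these cultures.

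Complexes I and II pass electrons from NADH and succinate to ubiquinone, complex III passes them on to cytochrome c, complex IV gives them to oxygen, and complex V uses the proton gradient that complexes I, III and IV build to make ATP. Each complex has a catalytic core and accessory subunits, and several complex IV subunits exist as isoforms typical of tissues, such as the muscle forms Cox7a1 and Cox6a2 and the testis forms Cox6b2 and Cox8c. Naive mouse embryonic stem cells are known to use both respiration and glycolysis, whereas primed epiblast stem cells are known to depend mainly on glycolysis. Epiblast-like cells lie between these states in development.

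The promoters of 4 members that recur in the comparisons show how unlike the regulatory sequence of the subunit genes can be. Each line gives 250 bases before and 50 bases after the annotated start, 5′ to 3′ on the gene's strand, from RefSeq on GRCm38.p6, and capitals mark matches on either strand to the motifs GCGCANGCG (NRF1, N being any base), CCGGAAG (ETS, the family of GABP) and AAGATGG (YY1). Cox7a1 lies at chr7:30183921-30184220 on the plus strand, Cox6a1 at chr5:115348909-115349208 on the minus strand, Cox6b1 at chr7:30626065-30626364 on the minus strand and Ndufa3 at chr7:3617123-3617422 on the plus strand.
Cox7a1: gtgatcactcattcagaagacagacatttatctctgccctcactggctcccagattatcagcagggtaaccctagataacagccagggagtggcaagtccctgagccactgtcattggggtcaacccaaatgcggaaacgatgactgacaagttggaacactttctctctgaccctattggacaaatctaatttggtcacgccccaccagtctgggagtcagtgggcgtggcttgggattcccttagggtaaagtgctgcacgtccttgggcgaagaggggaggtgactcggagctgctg
Cox6a1: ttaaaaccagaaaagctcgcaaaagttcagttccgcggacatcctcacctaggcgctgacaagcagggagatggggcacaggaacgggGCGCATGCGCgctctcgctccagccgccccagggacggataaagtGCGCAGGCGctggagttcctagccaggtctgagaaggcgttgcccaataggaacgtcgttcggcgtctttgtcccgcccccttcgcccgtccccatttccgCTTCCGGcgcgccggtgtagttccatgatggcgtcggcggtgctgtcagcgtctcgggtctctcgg
Cox6b1: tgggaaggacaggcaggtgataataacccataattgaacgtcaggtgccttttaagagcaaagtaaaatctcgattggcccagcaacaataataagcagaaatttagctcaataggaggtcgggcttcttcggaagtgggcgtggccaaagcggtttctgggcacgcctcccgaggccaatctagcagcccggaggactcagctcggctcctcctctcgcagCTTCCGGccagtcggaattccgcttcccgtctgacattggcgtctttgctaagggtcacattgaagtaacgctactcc
Ndufa3: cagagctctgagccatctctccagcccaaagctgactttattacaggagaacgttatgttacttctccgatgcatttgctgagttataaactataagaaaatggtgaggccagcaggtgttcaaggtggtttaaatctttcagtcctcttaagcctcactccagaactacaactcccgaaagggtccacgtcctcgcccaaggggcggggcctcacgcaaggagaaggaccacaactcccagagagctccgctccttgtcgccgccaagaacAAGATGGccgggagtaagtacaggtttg
A window was found for 65 of the 80 member genes and for 27025 genes in all. The NRF1 motif was in a window of 26.2% of these members and 7.03% of all these genes, and the ETS motif in one of 24.6% of the members and 9.93% of all. The YY1 motif was found for 16.9% of the members and 7.28% of all, and AAGGTCA, the motif of the estrogen-related receptors, in 10.8% against 5.38%. CTTTGAT, a motif of the Tcf/Lef factors, was found for 1.54% of the members and 4.29% of all. Of the members with a window, 23 were called lower in WT EpiLC than in WT ESC and 42 were not. AAGGTCA was found for 0 and 7 of these, the NRF1 motif for 3 and 14, and the ETS motif for 4 and 12. The YY1 motif was found for 7 and 4, and CTTTGAT for 0 and 1. The Cox7a1 window held none of these motifs, the Cox6a1 window held NRF1 matches and an ETS match, the Cox6b1 window an ETS match and the Ndufa3 window a YY1 match. These matches describe the windows and were not tested as binding sites.

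In the set of 39 arrays, 85 member probes of 71 genes had a mean intensity above the background limit of 13.6, which was the size of the lowest value in the set. That was 85.9% of the members, against 45% of all probes. A mean above 1000 was reached by 61 member probes and by 1752 of all probes. The 14 probes not above background included the only probes of 9 genes, and nothing is concluded on these genes. Among them were the core subunit genes Ndufs1 and Uqcrfs1 and the isoform genes Cox4i2, Cox6a2, Cox7b2 and Cox8b. Ndufab1, Uqcrq and Atp5k completed the 9. Intensities are linear array units and were compared between samples of 1 probe, not between probes. Replicate arrays correlated at 0.982 to 0.995 over probes above background in this set, and for 43 of 45 arrays the highest correlation was with a replicate. In the others, replicate 1 of KO EpiLC+CH and of 4XKO EpiLC+CH, it was with an untreated EpiLC array of the same line.

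Marker and target genes were set beside the labels. Over 9 measured naive markers, which include Klf4, Esrrb and Nanog, the summed intensity per array was 3777 to 4101 in WT EpiLC and 32632 to 35834 in WT ESC. Over 6 formative markers, including Fgf5, Otx2 and Pou3f1, it was 19702 to 21905 in WT EpiLC and 1518 to 1667 in WT ESC. Most of these sums was Dnmt3b, which averaged 14394 in WT EpiLC and 1087 in WT ESC, and Dnmt3a was below background in both. Tcf7l1 averaged 704 in KO EpiLC, 836 in 4XKO EpiLC and 1916 in 3XKO EpiLC, against 2018 in WT EpiLC, so a signal remained in both lines that lack it. Lef1 averaged 27.6 in 3XKO EpiLC and 6.33 in 4XKO EpiLC, against 68.6 in WT EpiLC, but it was also at 7.47 in KO EpiLC, which carries no Lef1 deletion, so its level does not check the label. The Tcf7l2 probe averaged 49.2 in 3XKO EpiLC and 43 in 4XKO EpiLC, against 42.1 in WT EpiLC, and did not check these labels, since the place of the probes relative to the deletions was not given. Tcf7 was not analysed here.

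When WT cells left the naive state, 6 of 7 complex III probes and 8 of 16 complex IV probes above background were lower in EpiLC than in ESC. Complexes I and V had calls in both directions and complex II had none, and the complexes were not tested against each other. Of the 99 member probes, 30 were lower and 9 higher in WT EpiLC than in WT ESC at an adjusted p under 0.05 (limma over all probes, Benjamini-Hochberg adjustment). In either direction 30% of all probes were called, and 57.7% of probes above background, a larger share than of the members. Bright probes were called more often, so the count was also set against probes with a mean above 1000: among these, 27 of 61 members (44.3%) were lower and 4 (6.56%) higher in EpiLC, whereas 27.4% of all such probes were lower and 35.7% higher. Fitted on the compared groups alone, 25 members were called. The median log2 difference of EpiLC minus ESC was -0.13 over the 85 members above background. By complex it was -0.33 for complex IV (1 higher and 8 lower of 16), -0.35 for complex III (0 higher and 6 lower of 7), -0.06 for complex I (4 and 12 of 42), -0.10 for complex V (3 and 4 of 16) and 0.05 for complex II (0 and 0 of 4). Of 7 fibroblast markers, Dcn and Thy1 were above background in WT EpiLC (7 markers summed 234 to 249) and none in WT ESC (19.9 to 31), the collagen genes being below it in both, and their part was not tested. Fewer transcripts in each cell and fewer cells of a state cannot be told apart in such bulk samples.

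**Figure D1:**
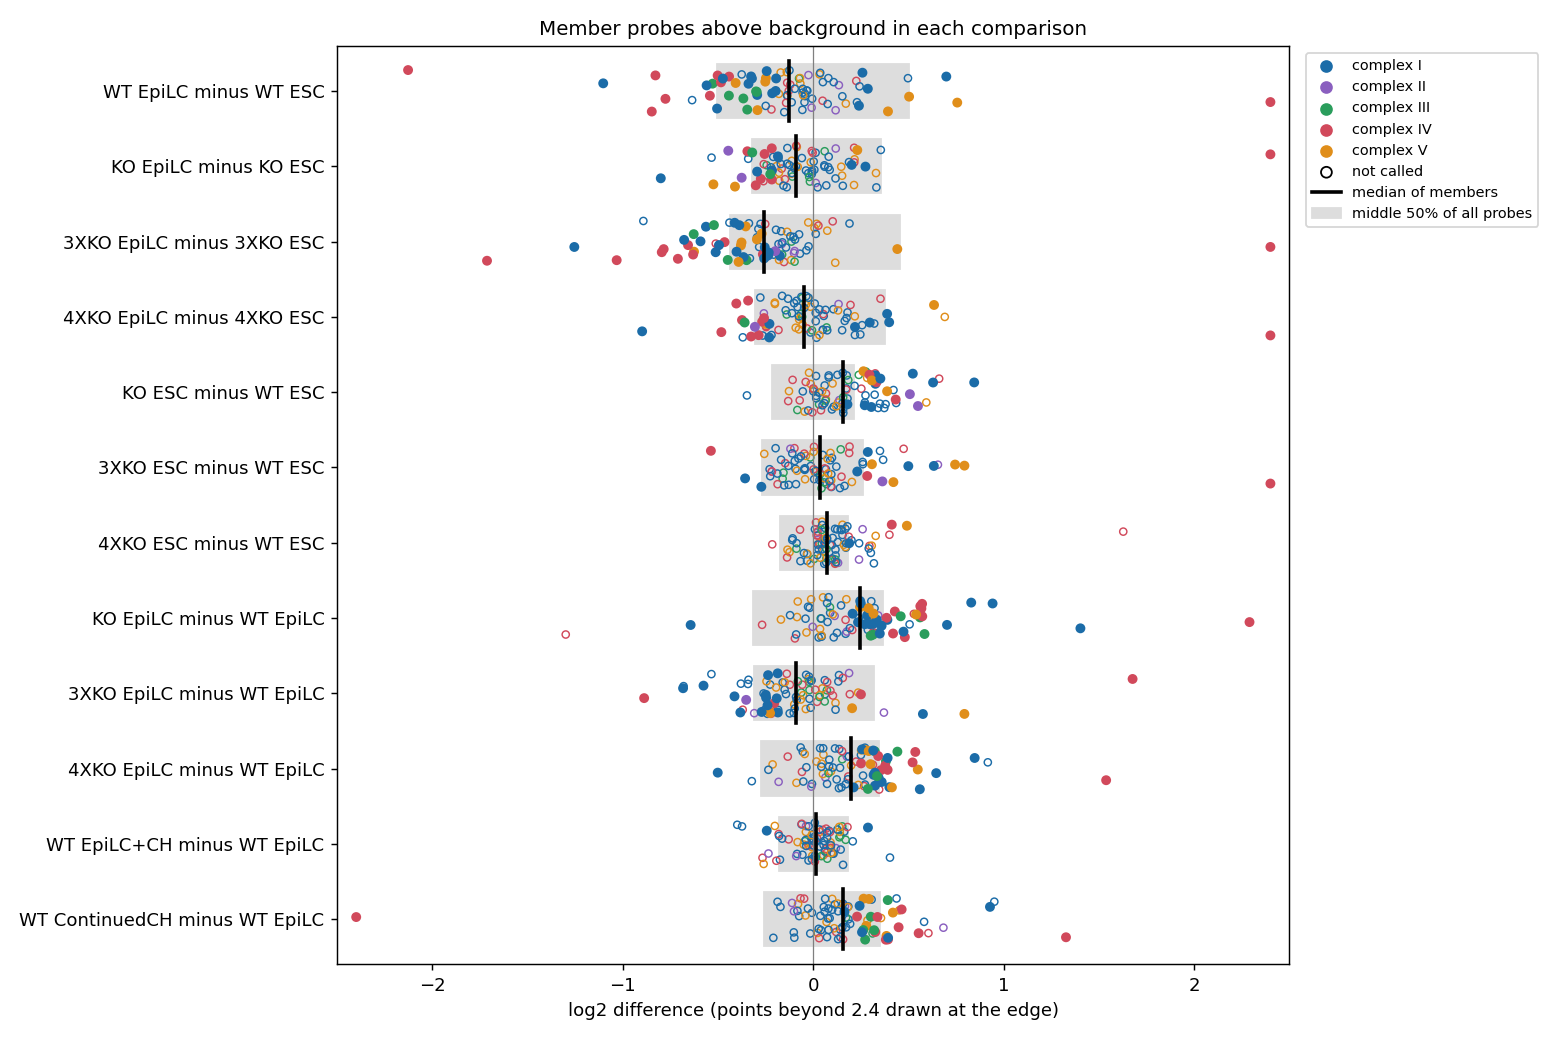
Log2 difference (x axis) of each member probe above background in each comparison (y axis), coloured by complex, filled where called at an adjusted p under 0.05, with the median of the members as a black line and the middle 50% of all probes above background as a grey bar. The members' median lies at -0.13 in WT EpiLC minus WT ESC, at 0.25 in KO EpiLC minus WT EpiLC and at -0.09 in 3XKO EpiLC minus WT EpiLC, and complex IV supplies the farthest points in most comparisons.

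Cox7a1, the muscle form of a small complex IV subunit, had the largest log2 decrease of all members. Its intensities were 183, 216 and 210.2 in WT EpiLC, against 963, 918 and 784 in WT ESC. The groups were far apart, with a log2 difference of -2.13 ± 0.12 (SE) and an adjusted p of 4.65e-15. Its widely expressed paralog Cox7a2 differed by 0.23 ± 0.16 and was not called, and Cox7a2l was lower, at -0.54 ± 0.10. All differences are on the log2 scale ± SE, negative where EpiLC, or the mutant or treated group named first, was lower.

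Cox5a, a nuclear-encoded subunit that contacts the catalytic core, had 4871, 5228 and 4701 in WT EpiLC, against 8687, 8758 and 9178 in WT ESC. No EpiLC array reached the lowest ESC array, and the log2 difference was -0.85 ± 0.07 with an adjusted p of 1.1e-11. Cox6a1, the widely expressed form of COX6A, was lower at both of its probes, at -0.78 ± 0.08 and -0.83 ± 0.09. Cox4i1, the widely expressed form of COX4, was lower, at -0.50 ± 0.08, and Cox6b1, which lies on the side facing cytochrome c, was lower, at -0.44 ± 0.07 and -0.48 ± 0.07 at its probes. Cox5b (-0.12 ± 0.06), Cox8a (-0.22 ± 0.10) and Cox6b2 (-0.14 ± 0.09) were not called.

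Cox8c, a testis form, went the other way at low intensity. It had 26.1, 32.4 and 36.5 in WT EpiLC, against -5.5, 0.9 and -0.8 in WT ESC, where no array was above background. Its level in EpiLC was at least 2.31-fold higher, measured against the background limit, with an adjusted p of 5.25e-09. The call of Cox6a2 as higher rested on values below background in both groups and is not read as a change.

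**Figure D2:**
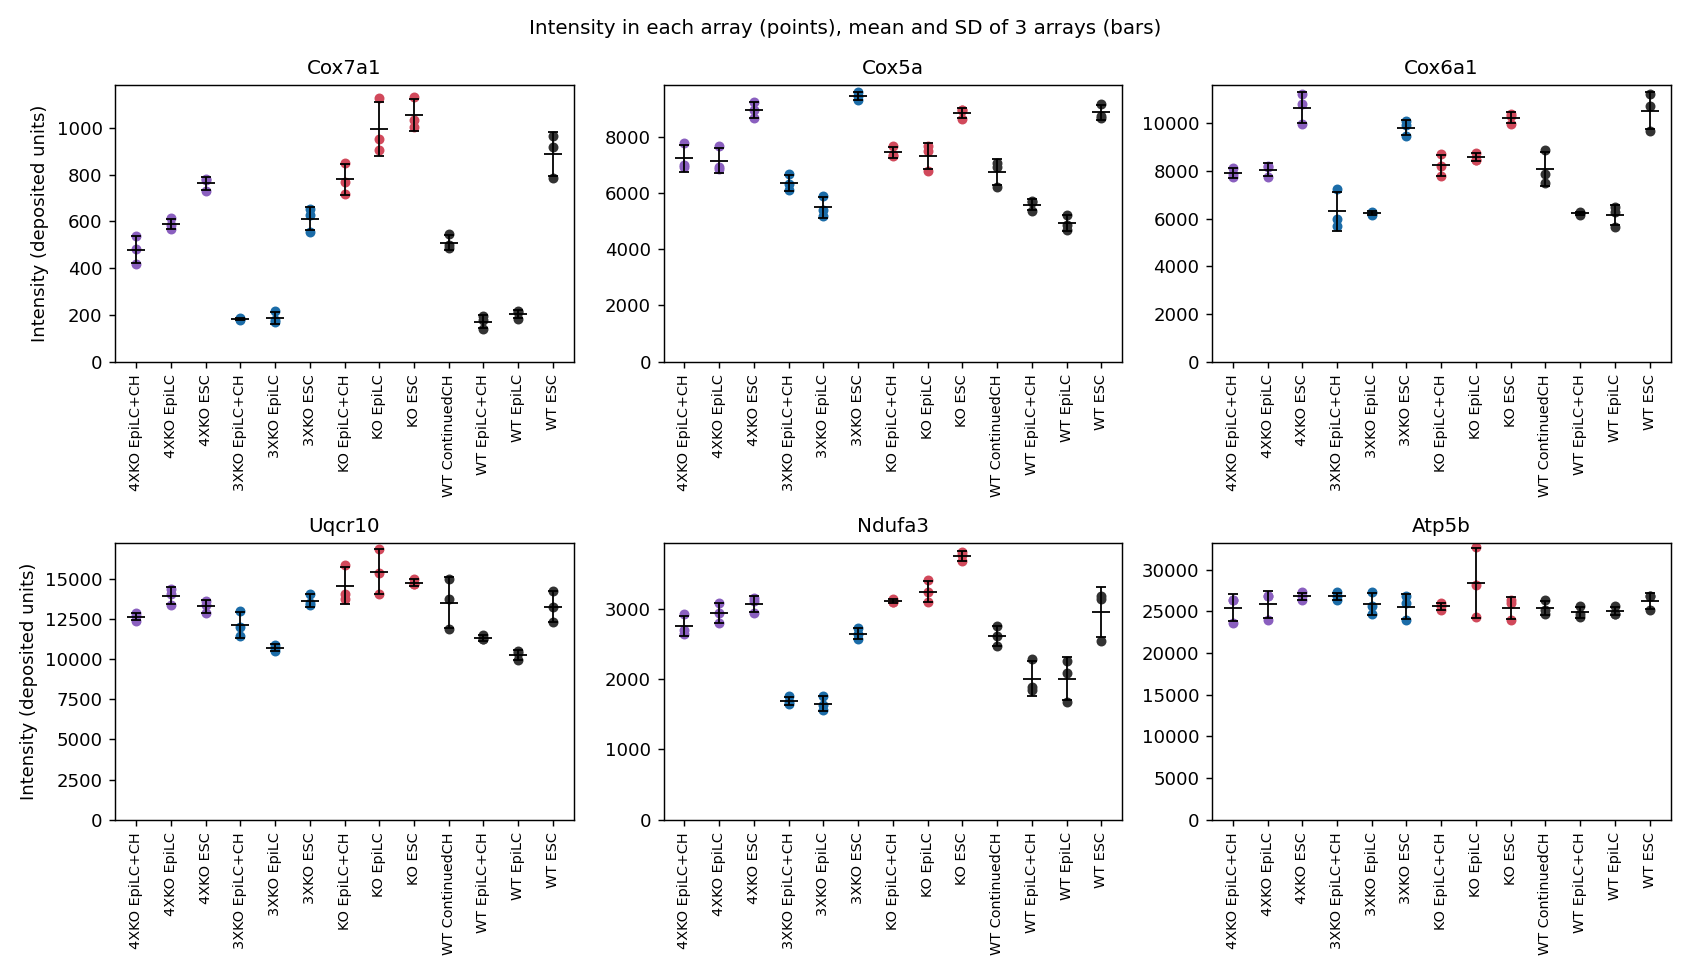
Intensity (y axis) of Cox7a1, Cox5a, Cox6a1, Uqcr10, Ndufa3 and Atp5b on each of the 39 arrays by group (x axis), with points for arrays and bars for the mean and SD of 3 arrays. Cox7a1 stands at 183 to 216 in WT EpiLC and 170.2 to 215 in 3XKO EpiLC, and at 419 or above on every array of KO, 4XKO and ContinuedCH.

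In complex III, Uqcrb, a ubiquinone-binding subunit, had 1215, 1394 and 1455 in WT EpiLC, against 1714, 1782 and 2421 in WT ESC, a log2 difference of -0.53 ± 0.13. The core proteins Uqcrc1 and Uqcrc2 were lower, at -0.44 ± 0.07 and -0.30 ± 0.07. Uqcrh, the hinge protein that helps cytochrome c to bind, was lower, at -0.35 ± 0.09, and both Uqcr10 probes were lower, the brighter at -0.37 ± 0.07. Uqcr11 was the complex III gene above background that was not called, at -0.07 ± 0.08.

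Complex I was mixed. Ndufa3, an accessory subunit of the membrane arm, had 1672, 2259 and 2089.6 in WT EpiLC, against 3131, 3185 and 2537 in WT ESC, a log2 difference of -0.56 ± 0.09 with no overlap between the groups. Ndufa6, an accessory subunit of the LYR family, was lower, at -0.47 ± 0.08, Ndufv2, an iron-sulfur subunit of the NADH-oxidizing module, at -0.33 ± 0.06, and Ndufb11 at -1.10 ± 0.23. Ndufs8, an iron-sulfur subunit near the ubiquinone site, was instead higher by 0.26 ± 0.05, as were Ndufa2 by 0.29 ± 0.09 and Ndufc2 by 0.24 ± 0.08. Ndufs3 (-0.06 ± 0.08), Ndufs7 (0.04 ± 0.08) and Ndufv1 (-0.14 ± 0.07), further core subunits, were not called.

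In complex V, the genes of the catalytic head were not called: Atp5a1 (α) differed by 0.17 ± 0.26, Atp5b (β) by -0.07 ± 0.07 and Atp5c1 (γ) by -0.18 ± 0.10, as did Atp5o, of the stalk, by -0.17 ± 0.10. Atp5e, the ε subunit, was higher by 0.76 ± 0.25, and Atp5g2, 1 of the 3 genes of the proton-carrying c subunit, had 2079.8, 2187 and 2222 in WT EpiLC, against 1499, 1648 and 1438 in WT ESC, a log2 difference of 0.50 ± 0.08. Its paralogs Atp5g1 (-0.14 ± 0.06) and Atp5g3 (-0.14 ± 0.08) were not called. Atp5pb, the b subunit of the peripheral stalk, was lower, at -0.41 ± 0.10. For Atp5j (coupling factor 6) the probes disagreed, the brightest being lower, at -0.25 ± 0.09 and a dim one higher by 0.39 ± 0.14. In complex II, Sdhb (-0.01 ± 0.11), Sdhc (-0.03 ± 0.07) and Sdhd (0.12 ± 0.30) were not called.

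**Figure D3:**
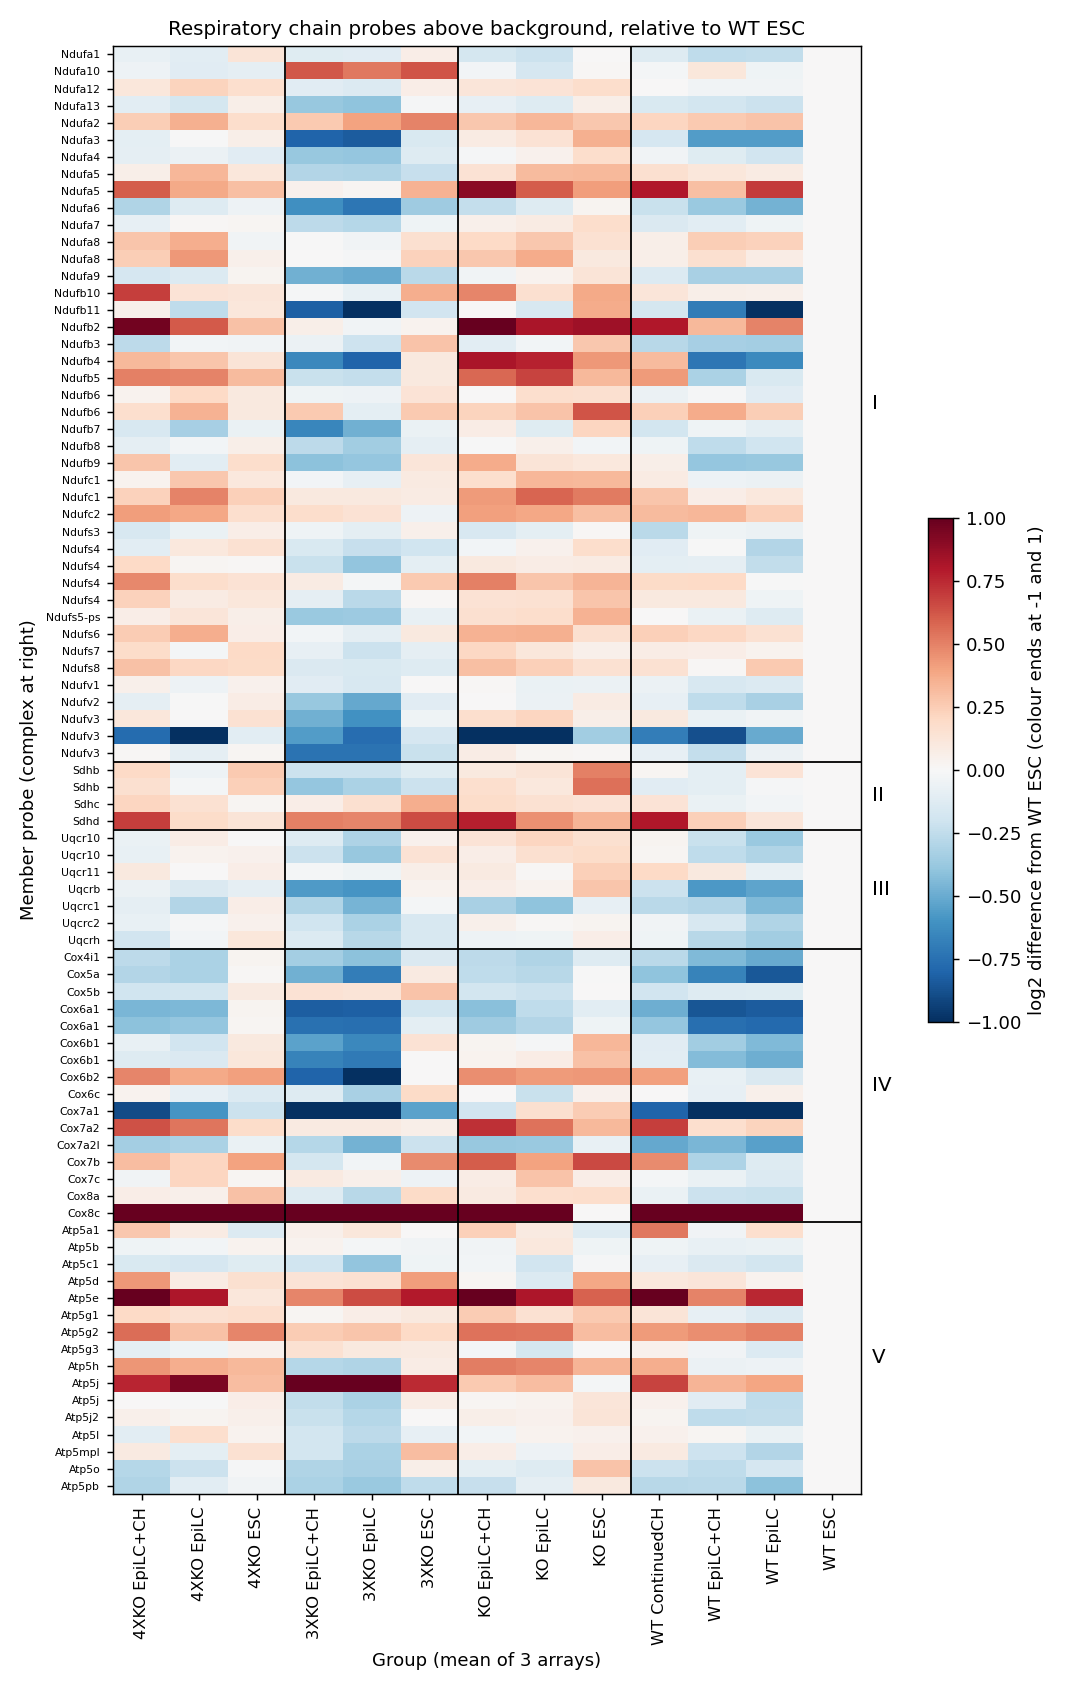
Mean log2 intensity of each group relative to the WT ESC mean (colour) for member probes above background (rows, by complex) across the 13 groups of the 39 arrays (columns). The lower values of WT EpiLC and 3XKO EpiLC are most visible among complex III and IV rows, while KO and 4XKO EpiLC lie closer to WT ESC.

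The mutant lines were taken through the same step. In KO, 4 member probes were higher and 16 lower in EpiLC than in ESC (20.4% of all probes called), in 3XKO 3 higher and 37 lower (27.8%), and in 4XKO 7 higher and 15 lower (20.9%). Among members brighter than 1000, 31 of 61 (50.8%) were lower and 0 higher in 3XKO EpiLC, against 27.8% of all such probes lower and 34.1% higher. The median over the members above background was -0.09 in KO, -0.26 in 3XKO and -0.05 in 4XKO. Fitted alone, 13 were called in KO and 12 in 4XKO. In 3XKO the medians were -0.51 for complex IV, -0.35 for complex III and -0.26 for complex I.

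Cox7a1 separated the lines. It had 1125, 954 and 906 in KO EpiLC against 1032, 1002 and 1133 in KO ESC, which was not called (-0.09 ± 0.12). In 4XKO it had 582, 614 and 569 in EpiLC against 779.7, 777 and 731 in ESC, lower, at -0.37 ± 0.12 (adjusted p = 0.0181). In 3XKO it had 215, 176 and 170.2 in EpiLC against 555, 626 and 653 in ESC, lower, at -1.71 ± 0.12. The EpiLC arrays of KO and 4XKO, the lines without Tcf7l1, all lay above those of WT and 3XKO.

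The difference between each mutant's transition and that of WT was tested directly. In KO it was called for 9 members, 7 less decreased or more increased than in WT and 2 the reverse (16.5% of all probes). Cox7a1 differed by 2.04 ± 0.16 on the log2 scale, Cox5a by 0.57 ± 0.09, Cox6a1 by 0.52 ± 0.11, Uqcr10 by 0.43 ± 0.10 and Cox4i1 by 0.34 ± 0.11. In 4XKO it was called for 14 members, 10 higher and 4 lower (14.4% of all probes), with Cox7a1 at 1.75 ± 0.16, Cox5a at 0.52 ± 0.09, Ndufa3 at 0.50 ± 0.13 and Uqcr10 at 0.44 ± 0.10. Atp5g2 went the other way, at -0.70 ± 0.11. In 3XKO it was called for 10 members, 0 higher and 10 lower (10.6% of all probes), led by Cox6b2 at -0.89 ± 0.13. These shares of members lie below or near the shares of all probes, so the transition of the members differed between lines no more often than that of other probes. The 3 comparisons share the WT arrays, and without WT ESC replicate 3 the counts were 14 in KO and 5 in 3XKO; without WT ESC replicate 1 the count was 8 in 4XKO, and 6 with the compared groups alone.

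**Figure D4:**
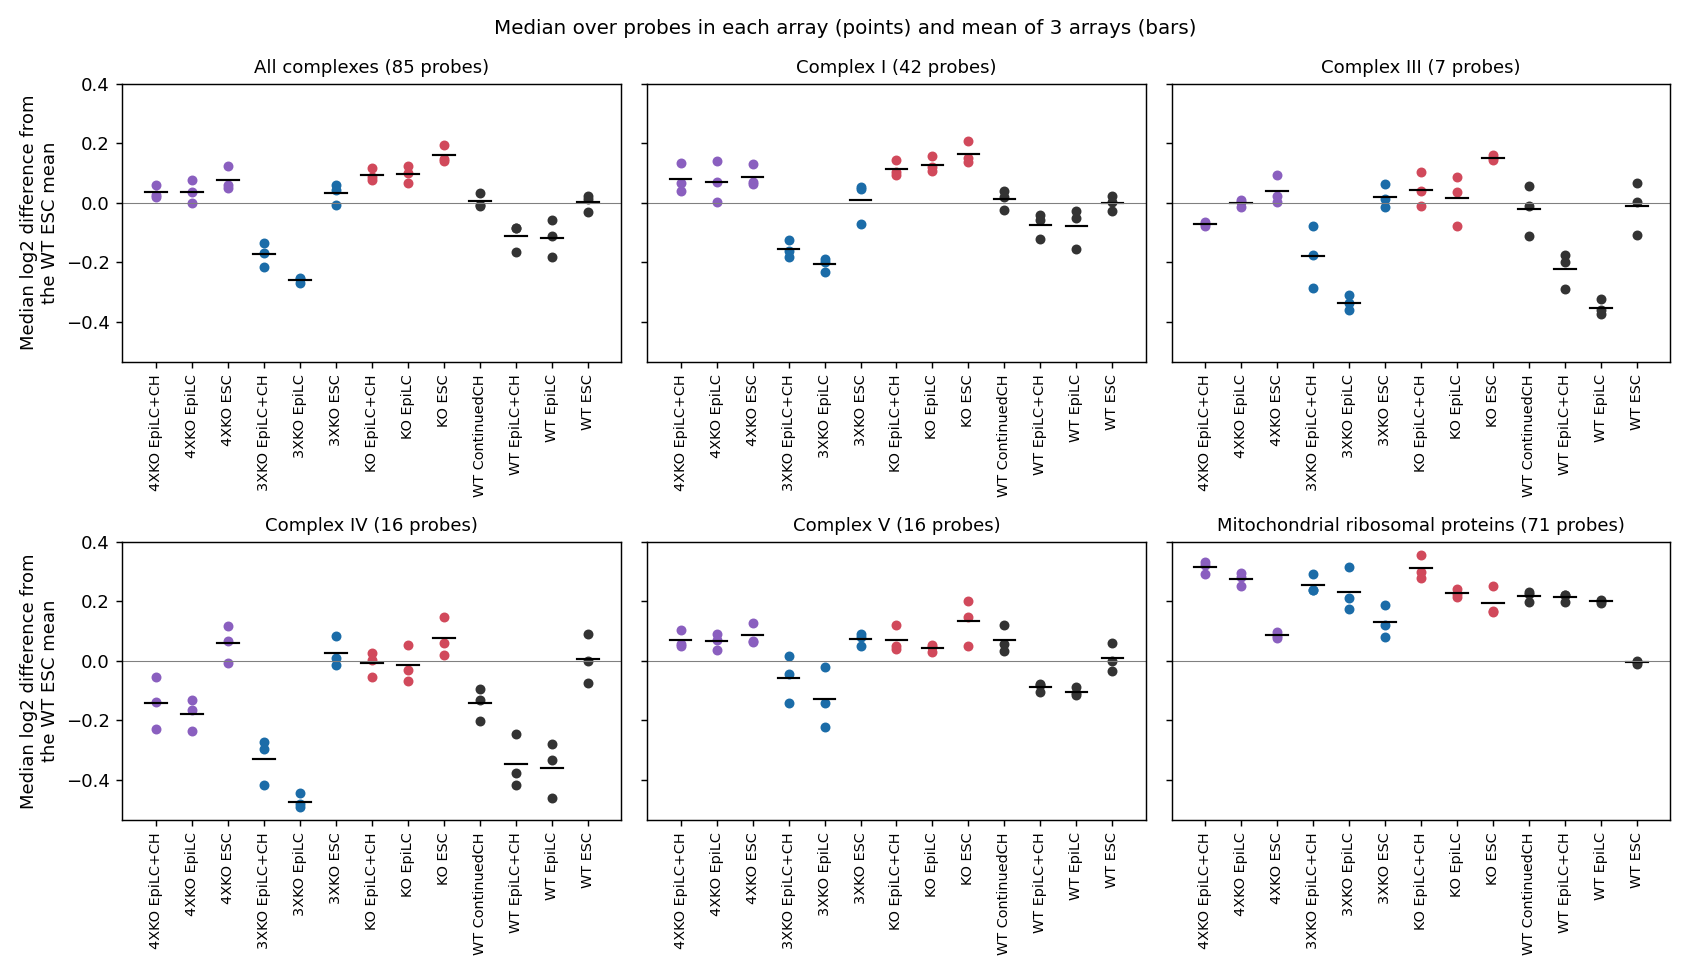
Median log2 intensity relative to the WT ESC mean (y axis) over probes above background on each of the 39 arrays (points, with the mean of 3 arrays as a bar) by group (x axis), for all members, complexes I, III, IV and V and mitochondrial ribosomal proteins (panels). Over all members the 3XKO EpiLC arrays lie between -0.27 and -0.25, the WT EpiLC arrays average -0.12, and the KO EpiLC and 4XKO EpiLC arrays average 0.10 and 0.04.

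In EpiLC, both lines without Tcf7l1 had more transcript of many subunits than WT, in complexes I, III and IV. In KO EpiLC 38 members were higher and 2 lower than in WT EpiLC (21.8% of all probes called). Of probes above background 42.5% were called in either direction, close to the share of the members. Among members brighter than 1000, 32 of 61 (52.5%) were higher and 0 lower, whereas 24.5% of all such probes were higher and 21.3% lower. The median over the members above background was 0.25, and by complex it was 0.42 for IV (9 higher of 16), 0.31 for III (5 of 7), 0.24 for I (17 higher and 1 lower of 42), 0.14 for II (0 of 4) and 0.08 for V (6 of 16). In 4XKO EpiLC 32 were higher and 2 lower (20% of all probes), with a median of 0.20. Here 38.5% of probes above background were called, again close to the share of the members. Of bright members 26 of 61 (42.6%) were higher and 0 lower, against 23.2% and 16.6% of all such probes.

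Cox7a1 was higher by 2.29 ± 0.12 in KO EpiLC (adjusted p = 2.38e-15) and by 1.54 ± 0.12 in 4XKO EpiLC than in WT EpiLC. Cox5a had 6783, 7675 and 7482 in KO EpiLC and 6856, 6927 and 7675 in 4XKO EpiLC, against 4871, 5228 and 4701 in WT EpiLC. Neither mutant overlapped WT, and the differences were 0.57 ± 0.07 and 0.54 ± 0.07. Cox6a1 was higher by 0.48 ± 0.08 and 0.39 ± 0.08, and Cox6b2, the testis form of COX6B, by 0.57 ± 0.09 and 0.52 ± 0.09.

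Uqcr10, a small complex III subunit, had 14063, 15315 and 16849 in KO EpiLC and 14063, 13350.2 and 14375 in 4XKO EpiLC, against 9910.1, 10466 and 10390 in WT EpiLC. Both mutants lay above WT, by 0.58 ± 0.07 and 0.44 ± 0.07. Uqcrb was higher by 0.56 ± 0.13 in KO EpiLC. In complex I, Ndufa3 was higher by 0.70 ± 0.09 and 0.56 ± 0.09, Ndufb5 by 0.83 ± 0.21 and 0.65 ± 0.21, and Ndufb11 by 0.94 ± 0.23 and 0.85 ± 0.23. Ndufb4 was higher by 1.40 ± 0.34 in KO EpiLC. In complex V, Atp5h, the d subunit of the peripheral stalk, was higher by 0.54 ± 0.13 and 0.41 ± 0.13, while Atp5b was not called, at 0.17 ± 0.07 and 0.04 ± 0.07. The probes of Ndufv3, a subunit of the NADH-oxidizing module, disagreed in KO EpiLC, the brightest being higher by 0.25 ± 0.06 and a dim one lower, at -0.64 ± 0.16. The call of Cox6a2 as lower in both rested on values below background.

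Other state markers moved with these groups. Summed naive markers were 18461 to 19460.0 in KO EpiLC and 18443 to 20121 in 4XKO EpiLC, against 3777 to 4101 in WT EpiLC, and 9 of 9 measured naive genes were called higher in both. Summed formative markers were 3483 to 3638 in KO EpiLC and 5296 to 5758 in 4XKO EpiLC, against 19702 to 21905 in WT EpiLC. Dnmt3b made up most of these sums, at 2262 in KO EpiLC, 3894 in 4XKO EpiLC and 14394 in WT EpiLC. Their part in the differences of the members was not tested.

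In 3XKO EpiLC, by contrast, 5 members were higher and 17 lower than in WT EpiLC, with a median of -0.09. Of all probes 18.8% were called, and of probes above background 37.2%, a larger share than of the members. Complex I, which has 45 of the 99 member probes, held 12 of the 17 lower probes. With the compared groups alone or without WT EpiLC replicate 3, 13 members were called in all, and 14 without 3XKO EpiLC replicate 2. Cox6b2 had 402, 351 and 444 in 3XKO EpiLC, against 715, 693 and 802 in WT EpiLC. The groups did not overlap, and the difference was -0.89 ± 0.09. Ndufs8 was lower, at -0.41 ± 0.05 and Ndufs7, which carries an iron-sulfur cluster next to the ubiquinone site, at -0.25 ± 0.08. Cox7a1 was not called, at -0.12 ± 0.12. Cox5b was higher by 0.25 ± 0.06 and Atp5g1 by 0.20 ± 0.06, and Cox8c had 106, 101 and 94.4 in 3XKO EpiLC, a difference of 1.68 ± 0.52 from WT EpiLC. Of the naive markers 8 of 9 were higher in 3XKO EpiLC (summed 6387 to 7326) and 0 of 6 formative markers were called. Of 7 trophoblast markers, 5 were above background in 3XKO EpiLC (summed 1844 to 2115) and 2 in WT EpiLC (566 to 640.1). Most of these sums was Tfap2c, which averaged 1859 in 3XKO EpiLC and 551 in WT EpiLC. Tfap2c was also at 2250 in WT ESC, 1327 in KO EpiLC and 1137 in 4XKO EpiLC. Of 8 extraembryonic endoderm markers, 2 were above background in 3XKO EpiLC (155 to 214) and 1 in WT EpiLC (31.2 to 43.7). Elf5 and Hand1, and Gata4, Foxa2 and Sox17, were not above background in 3XKO EpiLC. The part of these markers in the result was not tested.

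The lines also differed over whole chromosomes, which touches the members that lie there. Over genes above background, the median log2 difference from WT was 0.50 to 0.55 on chromosome 1 and -0.29 to -0.21 on chromosome 6 in 3XKO, and 0.15 to 0.19 on chromosome 6 in KO, over ESC, EpiLC and EpiLC+CH. Ndufa10, Ndufb3, Cox5b and Sdhc, the 4 members above background on chromosome 1, were all higher in 3XKO ESC than in WT ESC, by 0.63 ± 0.10, 0.29 ± 0.08, 0.28 ± 0.06 and 0.36 ± 0.07. On chromosome 6, Ndufa9 was lower, at -0.27 ± 0.07 in 3XKO ESC, and Ndufb2 was higher by 0.84 ± 0.24 and Ndufa5 by 0.33 ± 0.09 in KO ESC. Ndufa10 stood at 3884 to 4259 in 3XKO EpiLC, against 2638 to 2917 in WT EpiLC. Whether the copy number of these chromosomes differed was not tested. Without the members of chromosomes 1 and 6, 3 were higher and 15 lower of 88 in 3XKO EpiLC, and without those of chromosome 6, 36 were higher and 2 lower of 94 in KO EpiLC.

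In ESC the differences between lines were fewer. KO ESC had 17 members higher and 0 lower than WT ESC (9.39% of all probes called; 14 higher of 94 without chromosome 6), with a median of 0.16. Of members brighter than 1000, 12 of 61 were higher and 0 lower, against 15.6% and 12.7% of all such probes. Without KO ESC replicate 3 the count was 11, and with the compared groups alone it was 2. Sdhb, the iron-sulfur subunit of complex II, was higher at 2 of its probes by 0.55 ± 0.11 and 0.51 ± 0.09, Cox6b2 by 0.43 ± 0.09, Atp5d (δ) by 0.39 ± 0.09 and Ndufa3 by 0.35 ± 0.09. In 3XKO ESC 11 were higher and 3 lower (14.2%; 7 and 2 of 88 without chromosomes 1 and 6), among them Atp5e, higher by 0.79 ± 0.25, Ndufa2, higher by 0.50 ± 0.09, and Cox7a1, lower, at -0.54 ± 0.12. In 4XKO ESC 3 were higher and 0 lower (5.65%): Atp5g2 by 0.49 ± 0.08, Cox6b2 by 0.41 ± 0.09 and Ndufs8 by 0.19 ± 0.05, with 0 called in the compared groups alone. Naive markers moved too: 5 of 9 were lower and 0 higher in KO ESC than in WT ESC, with sums of 24772 to 26500.4 in KO ESC and 32632 to 35834 in WT ESC. In ESC of the KO line, 4 of 8 extraembryonic endoderm markers were above background (summed 156 to 213), against 1 in WT ESC (48.6 to 72.6). The count was also 4 in 3XKO ESC (136.2 to 159.4) and was 3 in 4XKO ESC (87.8 to 113.1). Gata4 and Foxa2 were not above background in KO ESC, and the part of these markers was not tested.

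After 24 hours of CHIR99021 few members were called in any line. In WT EpiLC+CH 1 member was higher and 1 lower than in WT EpiLC (6.51% of all probes called). These were Ndufs4, at its brightest probe only, at 0.29 ± 0.07 and Ndufs8 at -0.24 ± 0.05. In KO 0 members were called by limma (0.934% of all probes), and 2 of 99 had an unadjusted p under 0.05. In 3XKO Cox5a was higher by 0.22 ± 0.07 (1 member, 5.85% of all probes), and in 4XKO Atp5d was higher by 0.35 ± 0.09 (1 member, 2.16%). The response differed from that of WT for Ndufs8 in KO (1 member, 2.04% of all probes), by 0.30 ± 0.08. In 4XKO it differed for Ndufs8 (0.33 ± 0.08), the brightest Ndufs4 probe (-0.50 ± 0.10) and a Sdhb probe (3 members, 4.34%). The other Ndufs4 probes differed by 0.004, 0.02 and 0.09 in 4XKO and were not called. In 3XKO no member's response differed from WT by limma (0.693%), and 4 had an unadjusted p under 0.05. With the compared groups alone, 0 members were called in the WT, 3XKO and 4XKO responses.

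The lines were compared after CHIR99021 in the same way. In KO EpiLC+CH 33 members were higher and 1 lower than in WT EpiLC+CH (21.1% of all probes). In 4XKO EpiLC+CH 27 were higher and 1 lower (20.6%), and in 3XKO EpiLC+CH 5 higher and 11 lower (17.6%). For 3XKO this is no larger a share than over all probes. Shares over probes above background were not counted here, and in untreated EpiLC they were 42.5% for KO and 38.5% for 4XKO. The KO and 4XKO counts are therefore not read as more calls than among such probes. With the compared groups alone the counts were 20 in KO and 15 in 4XKO. Cox7a1 had 851, 717 and 769 in KO EpiLC+CH and 536, 482 and 419 in 4XKO EpiLC+CH, against 177, 194 and 139 in WT EpiLC+CH, and the mutants lay above WT on all arrays.

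WT cells that had CHIR99021 together with Fgf2 had more transcript of many complex III and IV genes than WT EpiLC. In ContinuedCH 24 members were higher and 2 lower than in WT EpiLC (19.2% of all probes). Of probes above background 37% were called in either direction, a larger share than of the members. Among members brighter than 1000, 20 of 61 (32.8%) were higher and 0 lower, against 21.6% and 14.6% of all such probes. With the compared groups alone 13 were called. The 2 lower were Cox8c and Cox6a2, and Cox6a2 was below background. Complex IV had 9 higher of 16 (median 0.33), complex III 5 of 7 (0.30), complex V 5 of 16 (0.22), complex I 5 of 42 (0.09) and complex II 0 of 4. Cox7a1 had 544, 497 and 485 in ContinuedCH, against 183, 216 and 210.2 in WT EpiLC, a difference of 1.33 ± 0.12 with no overlap. Cox5a was higher by 0.45 ± 0.07, Cox6a1 by 0.39 ± 0.08 and Uqcr10 by 0.39 ± 0.07. Summed naive markers in ContinuedCH were 19291 to 20449, with 9 of 9 higher than in WT EpiLC, and their part was not tested. The WT EpiLC arrays served in this and in the line comparisons, and ContinuedCH was not tested against EpiLC+CH.

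Other mitochondrial and metabolic gene lists were counted beside the members, and since most of their genes were above background, the shares of all probes above background called in either direction are the values to read them against. That share was 57.7% in WT EpiLC against WT ESC. Of 76 mitochondrial ribosomal protein genes, which translate the mitochondrially encoded subunits, 32 were higher and 5 lower in WT EpiLC than in WT ESC (median 0.17). Electron carrier genes had 2 higher and 5 lower of 13, with Etfb at -0.93 ± 0.08, Etfdh at -0.76 ± 0.12 and Etfa at -0.62 ± 0.08, all parts of the route from fatty acid oxidation to ubiquinone. Complex IV assembly factors had 1 higher and 5 lower of 18, complex I assembly factors 2 higher and 1 lower of 11, and the tricarboxylic acid cycle 6 higher and 3 lower of 15. Glycolysis genes had 11 higher and 4 lower of 21 (median 0.65). Among the higher were Slc2a1, a glucose transporter, at 1.36 ± 0.14, and Ldha, which makes lactate, at 1.34 ± 0.11. Pdk1, which holds back pyruvate entry into the tricarboxylic acid cycle, was also higher, at 2.35 ± 0.10. In the line comparisons glycolysis had 2 higher and 8 lower in KO EpiLC, 2 and 10 in 4XKO EpiLC, 1 and 10 in 3XKO EpiLC and 2 and 12 in ContinuedCH, each against WT EpiLC, and the 76 mitochondrial ribosomal proteins 11 and 9, 16 and 10, 13 and 11, and 8 and 7. Of all probes above background, 42.5% were called in KO EpiLC, 38.5% in 4XKO EpiLC, 37.2% in 3XKO EpiLC and 37% in ContinuedCH, so the ribosomal protein lists had fewer calls than that share in each.

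**Figure D5:**
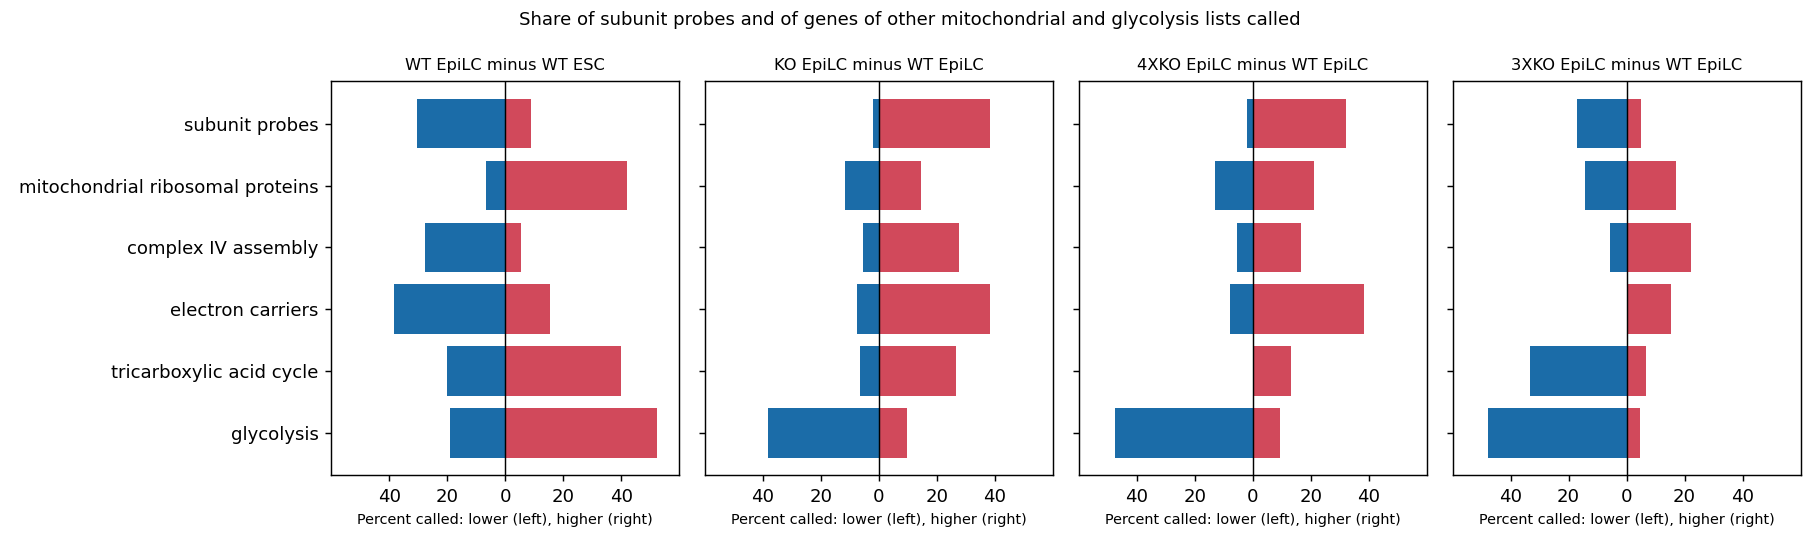
Percent of subunit probes and of genes of 5 other lists that were called lower (left of 0) or higher (right of 0) in 4 comparisons (panels). Subunit probes and glycolysis genes point opposite ways in WT EpiLC minus WT ESC, in KO EpiLC minus WT EpiLC and in 4XKO EpiLC minus WT EpiLC, and the same way in 3XKO EpiLC minus WT EpiLC.

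Among regulators of mitochondrial genes, Esrrb, an estrogen-related receptor that belongs to the naive network, averaged 1490.5 ± 70.3 in WT EpiLC and 11172 ± 877 in WT ESC (SD, n = 3 each). It was higher than in WT EpiLC by 2.10 ± 0.06 in KO EpiLC, by 2.10 ± 0.06 in 4XKO EpiLC, by 2.18 ± 0.06 in ContinuedCH and by 0.43 ± 0.06 in 3XKO EpiLC. Ppargc1b, a coactivator of respiratory genes, was lower, at -0.75 ± 0.20 and Gabpa at -0.36 ± 0.13 in WT EpiLC than in WT ESC. Stat3, the transducer of the LIF signal, stood at -1.76 ± 0.12, and Lin28a, an RNA-binding protein of pluripotent cells, at 3.35 ± 0.18. Tfam, which transcribes and packages mitochondrial DNA, was instead higher by 0.40 ± 0.13. Nrf1 (0.06 ± 0.11), Esrra (0.07 ± 0.12) and Hif1a (0.07 ± 0.12) were not called between WT EpiLC and WT ESC. Ppargc1b averaged 39.6 in WT EpiLC, 30 in KO EpiLC, 38.5 in 4XKO EpiLC, 29.6 in 3XKO EpiLC and 50.4 in ContinuedCH. Gabpa averaged 82.3, 86.5, 96, 100.5 and 106.4 in the same groups. In that order Nrf1 averaged 212.8, 227.8, 278.3, 415.1 and 320, and was thus highest in 3XKO EpiLC. Esrra averaged 212.3, 215.7, 237.4, 147.7 and 207.6, and Hif1a 134.2, 94.6, 122.6, 142.1 and 118.3. The part of these regulators in the differences of the members was not tested.

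In the second set of 8 WT arrays, 86 member probes were above the background limit of 14.3. Between LIF+PD then CH and LIF+PD, 0 members were called by limma (0.342% of all probes), and 9 of 99 had an unadjusted p under 0.05. Cox7a1 had 736, 605 and 685 in LIF+PD then CH and 754, 601 and 1077 in LIF+PD, with overlapping ranges. LIF+CH and PD+CH had 1 array each and no test. Of the 86 members, 31 lay above and 22 below all LIF+PD arrays in LIF+CH (36% and 25.6%, against 34.3% and 33.5% of all probes above background), and 21 and 19 in PD+CH (24.4% and 22.1%, against 32.9% and 27.5%).

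Cox6a2, the muscle form of COX6A, differed between the sets. It had 1247, 1559.5 and 1458 in LIF+PD then CH, 301 in LIF+CH, 667 in PD+CH and 1149.8, 947 and 896 in LIF+PD, but -5.6 to 14.8 over the 39 arrays, WT ESC included. The sets were normalized separately and hold no group in common, so this difference has no test. It was bright in all 4 media of the second set, and by the labels LIF+PD then CH used the same additives as the ESC medium in which it was at background, although it is not stated whether LIF and PD0325901 stayed during CHIR99021. The source of the difference was not tested.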

How the data were processed

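RNA of 47 cultures was labelled with biotin and hybridized to Illumina mouse arrays. The deposited values are linear intensities, some below 0, which the authors normalized in 2 sets of 39 and 8 arrays; the submitters' processing notes name lumi and limma, and the exact steps and the array's genome build are not given in the sources used here. Within each set the sorted values of the arrays differed by at most 0.3 in the set of 39, as after quantile normalization. Log2 values were computed here from the deposited intensities: a floor of 1 was applied before the logarithm, and each set was then quantile-normalized again. Each set was fitted with a mean per group in limma 3.58.1 (R 4.3.3; lmFit and eBayes), on all 25697 probes with Benjamini-Hochberg adjustment over all of them, and a probe was called at an adjusted p under 0.05. Fold changes are log2 differences ± SE. The fit was tested on simulated data. The background limit was the size of the lowest value in a set, 13.6 and 14.3, and the number of arrays limits the precision. Probe genes came from the platform annotation: 23978 probes had a symbol and 1719 none. Up to 10 called genes in each direction with the largest differences were named per comparison, together with paralogs, core subunits and members on shifted chromosomes; a gene with several probes was named by its brightest. Members, lists, motifs and printed promoters were chosen with earlier results of these data known. The NRF1 motif was shortened by 1 base after its shares had been seen, which raised the share of members and of all genes that hold it. Alternatives were no second normalization, cyclic loess, another floor, leaving out dim probes, fits of the compared groups alone, a replicate block and leaving out each array. Figures were drawn with matplotlib 3.10.9.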

Additional observations from a re-analysis of the deposited data

Results flagged for a closer look

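The transition from ESC to EpiLC differed from that of WT for some members in each mutant line by a direct test of the difference, at shares of the 99 member probes no larger than over all probes (16.5% in KO, 14.4% in 4XKO and 10.6% in 3XKO). In KO 9 members differed: Cox7a1 (2.04 on the log2 scale), Cox5a (0.57), Cox6a1 (0.52), Uqcr10 (0.43), Cox4i1 (0.34) and Ndufa6 (0.32) were less decreased than in WT, and Atp5d (-0.56) went the other way. In 4XKO 14 differed, with Cox7a1 (1.75), Cox5a (0.52), Ndufa3 (0.50), Uqcr10 (0.44), Ndufa6 (0.39), Cox6a1 (0.37), Ndufb3 (0.35), Ndufa8 (0.31), Ndufv2 (0.25) and Ndufa4 (0.25) above WT and Atp5g2 (-0.70) and Ndufs8 (-0.24) below it. In 3XKO 10 differed, all below WT: Cox6b2 (-0.89), Ndufv3 (-0.53), Atp5g2 (-0.43), Cox6b1 (-0.35), Ndufs6 (-0.34), Atp5mpl (-0.33), Ndufa8 (-0.32) and Ndufs8 (-0.28) were the named genes. The response to CHIR99021 differed from WT for 1 member in KO, Ndufs8 (0.30), against 2.04% of all probes. In 4XKO it differed for 3, against 4.34%, among them Ndufs8 (0.33) and Ndufs4 at its brightest probe only (-0.50).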

How the results depend on the processing

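Counts below are called members, with the count of the report in brackets. Fitted on the compared groups alone, which leaves fewer arrays to estimate the spread, the transition had 25 in WT (39), 13 in KO (20) and 12 in 4XKO (22), and its difference from WT 6 in 4XKO (14). In the same fit KO ESC had 2 (17), 4XKO ESC 0 (3), 3XKO EpiLC 13 (22), KO EpiLC+CH 20 (34), 4XKO EpiLC+CH 15 (28), each against WT, and ContinuedCH 13 (26). The responses to CHIR99021 had 0 in WT (2), 3XKO (1) and 4XKO (1), and 0 for KO against WT (1). With the floor at the background limit, the transition differed from WT for 14 in KO (9), 4XKO ESC had 5 (3), the CHIR99021 responses 3 in 3XKO (1) and 2 in 4XKO (1), and the response differed from WT for 2 in KO (1) and 1 in 3XKO (0). Cyclic loess gave 0 for the 3XKO response and 0 for the KO response against WT, which was also 2 without the dimmest probes and 0 with KO EpiLC replicates 2 and 3 averaged, as these correlated at 0.995 and the other KO EpiLC pairs at 0.984 and 0.985. Without the members of chromosomes 1 and 6, chosen after seeing the data, 3XKO ESC had 9 (14). The cause of these moves was not tested beyond the fewer arrays or members counted.

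Leaving out 1 array at a time gave 32 to 41 for the transition in WT, 14 to 18 in KO, 35 to 42 in 3XKO and 17 to 23 in 4XKO. Its difference from WT gave 7 to 14 in KO (14 without WT ESC replicate 3), 5 to 11 in 3XKO (5 without WT ESC replicate 3) and 8 to 14 in 4XKO (8 without WT ESC replicate 1). Against WT, ESC gave 11 to 17 in KO (11 without KO ESC replicate 3), 12 to 14 in 3XKO and 2 to 3 in 4XKO; EpiLC gave 31 to 40 in KO, 13 to 20 in 3XKO (13 without WT EpiLC replicate 3, 14 without 3XKO EpiLC replicate 2) and 23 to 32 in 4XKO; EpiLC+CH gave 23 to 32, 11 to 13 and 20 to 31. The CHIR99021 responses gave 1 to 3 in WT, 0 to 0 in KO, 0 to 1 in 3XKO and 0 to 1 in 4XKO, and their differences from WT 0 to 2 in KO, 0 to 1 in 3XKO and 2 to 4 in 4XKO. The counts of 1 in the 3XKO and 4XKO responses and in the KO difference went to 0 without several single arrays. ContinuedCH gave 19 to 23, and LIF+PD then CH 0 to 0. The members' median in 3XKO ESC minus WT ESC was 0.0357 and ranged from -0.0028 without WT ESC replicate 3 to 0.0667 without 3XKO ESC replicate 1. Of 193 named genes and comparisons, 108 kept their call in the compared groups alone, 176 under cyclic loess, 191 with the other floor and 193 without the second normalization, and none changed sign. Of 234 same-numbered pairs of arrays, 84 correlated above 0.1 in their deviations (mean 0.0642, against -0.0318 for 468 differently numbered pairs), which is short of all pairs, so the numbers were not treated as pairs; with the replicate block 4XKO ESC had 6 (3) and all 193 named calls were kept.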

Other observations

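Cox6a2 was 1 of 2 probes among 25697, with Aldh3a1, whose mean over the 39 arrays was under the background limit and which exceeded 100 on each of the 8 arrays of the second set. Taf7l showed the reverse. Of the other members, Ndufab1 was above background on average only in the set of 8 arrays (mean 23.6) and Cox8c only in the set of 39 (mean 26). In PD+CH the Sdhb probes stood at 1530 and 1465, which was -0.76 and -0.81 from the LIF+PD mean on the log2 scale, on 1 array.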
